A study of Homo sapiens with 6 samples.

Results

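The genes examined encode the enzymes and transporters of central carbon metabolism, namely glucose and lactate transport, glycolysis, the pyruvate dehydrogenase step, the pentose phosphate pathway and the tricarboxylic acid (TCA) cycle with its malic enzymes. They are the 46 rows of the deposited count table whose gene symbol is on a list of such genes. All 46 symbols were found among the 23710 rows of the table, and all 46 passed the filter on low counts, among 13591 genes tested. RNA was measured in THP-1 cells, an established human monocytic leukaemia line, in a group given 10 uM mebendazole for 6 h (3 libraries) and a group given the vehicle DMSO for 6 h (3 libraries). Mebendazole is an anthelmintic benzimidazole that binds tubulin and blocks microtubule assembly. Each mebendazole library shares a sample pair number with a DMSO library, and nothing says whether the pairs came from separate cultures, so the spread behind each p-value is that of these 6 libraries and may be technical. Both groups are of a single line under the same growth medium, so the data describe this line only.

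Glycolysis splits glucose into pyruvate in the cytosol and yields ATP, and its flux is set mainly at glucose entry, at hexokinase and at phosphofructokinase. Pyruvate is either reduced to lactate and exported or oxidised by the pyruvate dehydrogenase complex to feed the TCA cycle in mitochondria. The pentose phosphate pathway branches off after hexokinase and makes NADPH and ribose. In monocytes and macrophages, a shift of expression toward glucose uptake and glycolysis is known to accompany inflammatory activation.

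The 6 libraries held 13420558 to 15727667 counts. Spearman correlations lay at 0.997 or above within groups and between 0.886 and 0.889 across them. All 12 monocyte markers examined were detected and tested. Their summed reads per library ranged from 34253 to 38533 with mebendazole and from 39309 to 46771 with DMSO, and they moved both ways. Of the 12, 6 were called lower, among them CD33 (log2 fold change -1.76), FCGR1A (-1.08), CD14 (-1.06) and LYZ (-0.70), and 2 were called higher, SPI1 (0.98) and CD68 (0.10). Of 15 markers of lymphocytes, epithelium, stroma, endothelium, red cells and platelets, 9 had fewer than 10 reads over all libraries, and 3 of those had none. The 15 together ranged from 2004 to 2344 reads with mebendazole and from 1630 to 1979 with DMSO, most of them from PECAM1, which monocytes also express. The part of these shifts in the results was not tested.

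With mebendazole, the glucose transporters SLC2A1 and SLC2A3, the lactate exporter SLC16A3 and the regulatory enzymes HK3, PFKFB3, PFKFB4 and PDK1 rose. ENO2, OGDH and ME1 rose as well. The regulatory enzymes HK2 and PDK3, the pyruvate dehydrogenase subunits PDHA1 and PDHB, 4 of the 6 pentose phosphate genes and 10 of the 12 genes of the TCA cycle and malic enzymes fell. The transporter SLC16A1 fell too. Of the 19 glycolysis genes, 7 rose and 11 fell, with HK2, GPI and LDHB among the falls. Of the 46 genes, 15 were called higher, 29 lower and 2 were not called (edgeR quasi-likelihood test, Benjamini-Hochberg adjusted p under 0.05 over all genes tested). These counts stand against a background in which 82.3% of all genes tested were called, 40.6% higher and 41.7% lower, so that being called does not by itself set these genes apart. The median log2 fold change was -0.26 over the 46 genes and -0.03 over all genes tested. At 2-fold or more, 10 of the 46 were higher and 6 lower, where 30.4% of all genes tested changed by that much, 15.5% higher and 14.8% lower. The libraries of the 2 groups did not overlap for 43 of the 46 genes, and for 82.4% of all genes tested. Against a 1.5-fold change, 11 of the 46 were higher and 16 lower, where 21.3% of all genes tested were higher and 21.2% lower. Each value is a share of its own library's RNA, so a change in RNA per cell would not show. When libraries were scaled by their total counts instead of TMM factors, the median log2 fold change of all genes shifted by -0.24 and 30.8% of genes were called higher and 53.9% lower. Of the 46, 14 were then higher and 31 lower, because SLC2A6 lost its call and ALDOA and TALDO1 were called lower. Together the 46 genes took 0.916%, 0.913% and 0.925% of all reads in mebendazole libraries, against 1.05%, 1.02% and 1.05% in DMSO libraries. Transport genes took a larger share of reads with mebendazole, 0.107 ± 0.00223% against 0.0573 ± 0.00127% with DMSO (SD, n = 3 each). The listed genes of each of the other 4 pathways took a smaller one. All these are shares of total counts, a scaling under which the median gene itself shifted by -0.24 on the log2 scale. The falls of the glycolysis share and of the pentose phosphate share (0.0873% with mebendazole, 0.105% with DMSO) were close to that shift. The glycolysis and total shares depend on which genes are listed. The pyruvate kinase gene PKM, which is not among the 46, took 0.233 ± 0.00203% of reads with mebendazole and 0.0997 ± 0.0027% with DMSO. With PKM counted in, the glycolysis share was 0.829 ± 0.00561% with mebendazole and 0.795 ± 0.0181% with DMSO, where it was 0.596 ± 0.00471% and 0.696 ± 0.0155% without it. The share of all 46 and PKM was 1.151 ± 0.00746% with mebendazole and 1.14 ± 0.0194% with DMSO.

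**Figure D1:**
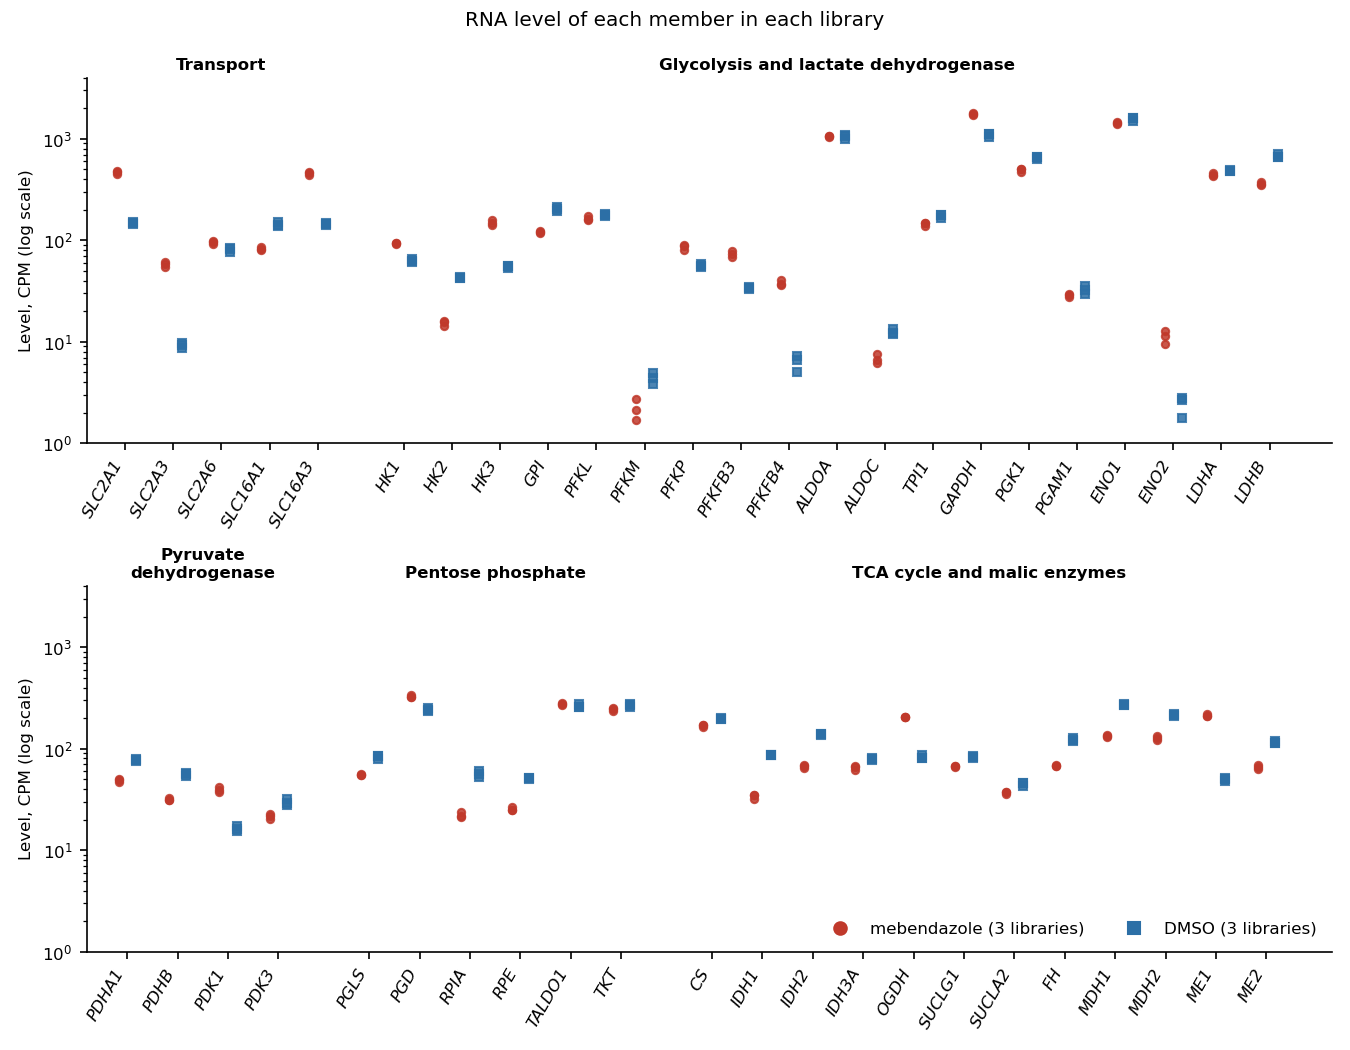
RNA level of each of the 46 genes in each library, in CPM (counts over the TMM-scaled library total) on a log axis, by pathway; circles are the 3 mebendazole libraries and squares the 3 DMSO libraries. The groups lie apart for 43 of the 46 genes, and ALDOA, PGAM1 and TALDO1 overlap.

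**Figure D2:**
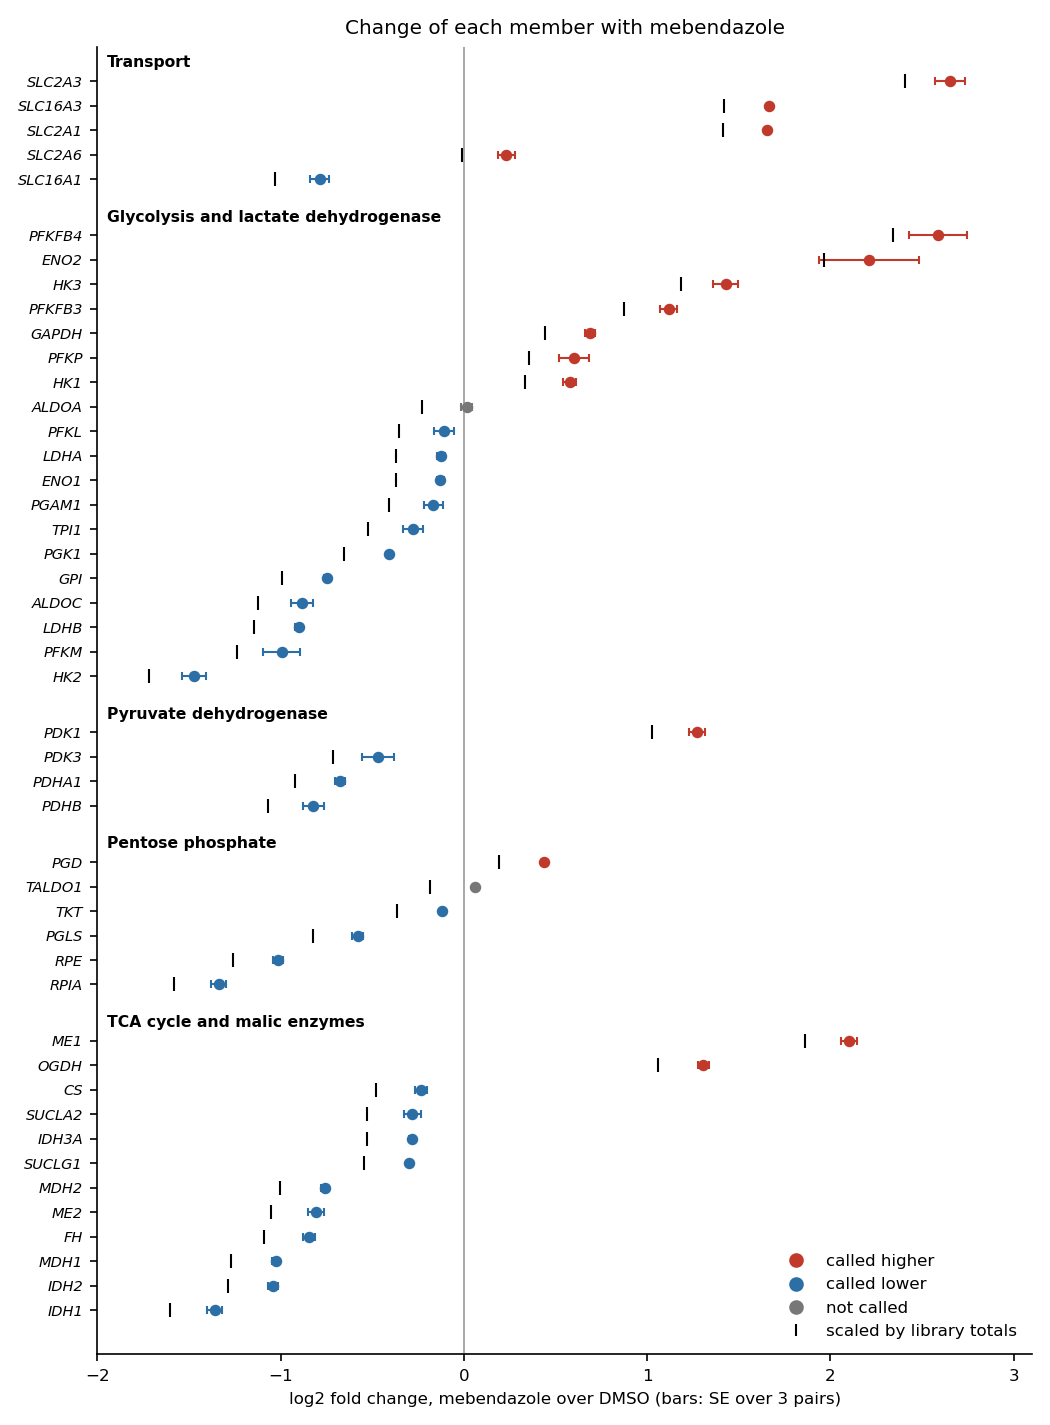
Log2 fold change of each gene, mebendazole over DMSO, with the standard error over the 3 pairs, ordered within each pathway; black ticks give the value when libraries are scaled by total counts. The rises are led by SLC2A3 (2.65) and PFKFB4 (2.59) and the falls by HK2 (-1.47), and the tick of SLC2A6 lies at zero.

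Promoter sequences are shown for the genes at the ends of this range that have one in the RefSeq table, PFKFB4, ENO2 and ME1 with the largest rises and HK2, IDH1 and RPIA with the largest falls, so that the letters of their upstream windows can be read beside their changes. Of the 46 symbols, 43 matched, and SLC2A3, SLC16A1 and OGDH did not. Each is the 250 bases before the annotated start, 5′ to 3′ on the gene's strand, from RefSeq on GRCh38.p14, a later build than the hg19 named for the deposited table. Capitals mark the hypoxia response core (ACGTG or GCGTG, either strand) and the antioxidant response core (TGACNNNGC, either strand). Their positions are chr3:48556804-48557053 on the minus strand for PFKFB4, chr12:6914330-6914579 on the plus strand for ENO2, chr6:83431052-83431301 on the minus strand for ME1, chr2:74833877-74834126 on the plus strand for HK2, chr2:208254459-208254708 on the minus strand for IDH1 and chr2:88691423-88691672 on the plus strand for RPIA.
PFKFB4: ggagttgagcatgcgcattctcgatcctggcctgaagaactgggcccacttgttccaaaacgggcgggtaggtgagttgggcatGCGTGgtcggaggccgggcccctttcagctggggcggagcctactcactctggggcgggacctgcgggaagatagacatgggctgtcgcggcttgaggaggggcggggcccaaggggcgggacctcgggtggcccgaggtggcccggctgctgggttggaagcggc
ENO2: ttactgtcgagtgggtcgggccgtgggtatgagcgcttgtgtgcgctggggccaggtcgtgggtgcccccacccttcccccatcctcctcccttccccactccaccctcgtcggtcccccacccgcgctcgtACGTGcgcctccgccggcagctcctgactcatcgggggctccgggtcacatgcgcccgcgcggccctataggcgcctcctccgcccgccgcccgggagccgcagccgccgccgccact
ME1: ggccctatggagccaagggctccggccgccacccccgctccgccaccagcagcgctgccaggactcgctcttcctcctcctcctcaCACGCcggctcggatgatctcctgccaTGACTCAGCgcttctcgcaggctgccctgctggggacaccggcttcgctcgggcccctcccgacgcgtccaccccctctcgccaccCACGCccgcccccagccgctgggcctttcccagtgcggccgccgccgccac
HK2: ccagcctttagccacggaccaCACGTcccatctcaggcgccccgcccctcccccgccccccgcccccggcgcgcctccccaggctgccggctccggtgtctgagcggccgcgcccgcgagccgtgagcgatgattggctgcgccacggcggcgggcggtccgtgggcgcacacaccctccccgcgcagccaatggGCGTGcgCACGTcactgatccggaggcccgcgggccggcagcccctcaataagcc
IDH1: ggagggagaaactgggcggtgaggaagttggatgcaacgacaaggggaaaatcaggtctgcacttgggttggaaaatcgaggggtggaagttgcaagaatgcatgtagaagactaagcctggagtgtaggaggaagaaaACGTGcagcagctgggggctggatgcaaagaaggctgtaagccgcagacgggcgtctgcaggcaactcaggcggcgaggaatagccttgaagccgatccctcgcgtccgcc
RPIA: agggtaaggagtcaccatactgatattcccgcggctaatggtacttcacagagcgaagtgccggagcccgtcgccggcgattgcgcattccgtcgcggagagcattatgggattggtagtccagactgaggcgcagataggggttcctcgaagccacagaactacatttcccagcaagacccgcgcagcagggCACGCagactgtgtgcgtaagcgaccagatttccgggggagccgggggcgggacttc

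ME1 alone of these 6 windows held an antioxidant response core, TGACTCAGC, whose first base on the gene's strand lies 137 bases before the start. PFKFB4 and ENO2 held 1 hypoxia response core each, ME1 held 2, HK2 held 3, and IDH1 and RPIA held 1 each. Hypoxia response cores were thus present in all 6 windows, of risers and fallers alike. They occurred in 4 of 8 promoters of members higher by 2-fold or more and in 4 of 6 of members lower by 2-fold or more, and in 58.6% of the 29 promoters of members that changed less. Across all 9902 promoters matched to genes tested the share was 57.1%, and across all 35116 promoters of the table it was 43.2%. The antioxidant response core stood in 6 of 43 members' promoters (14.0%), against 12.1% of promoters of genes tested. ACGTG is also part of the E-box CACGTG, which stood in 8.9% of promoters of genes tested. It stood in 0 of the 8 and 0 of the 6 promoters of members higher and lower by 2-fold or more, too few to read as an absence. SLC2A3 and OGDH also rose by that much but had no promoter to search. A match is a description of letters and not a bound site.

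Of the 5 glucose and lactate transporters, 4 were called higher and 1 lower, and 3 of the rises were above 2-fold. SLC2A3, the high-affinity glucose transporter GLUT3, had 61.3, 54.7 and 59.1 CPM in mebendazole libraries, against 8.68, 9.29 and 9.82 CPM in DMSO libraries. Every mebendazole library lay far above every DMSO library, and the log2 fold change was 2.65 (SE over the 3 pairs 0.08, adjusted p = 1.3e-42, edgeR). SLC2A1, the widely expressed glucose transporter GLUT1, had 479.8, 451 and 476 CPM with mebendazole, against 153, 144 and 149.9 CPM with DMSO. It rose 3.15-fold, with an SE over pairs of 0.01 on the log2 scale. SLC16A3, the monocarboxylate transporter MCT4 that exports lactate from glycolytic cells, had 473, 444 and 460.3 CPM with mebendazole, against 148, 142 and 145 CPM with DMSO, a rise of 3.17-fold. SLC2A1 and SLC16A3 thus stood at near-equal counts in both groups. SLC16A1, the monocarboxylate transporter MCT1, moved the other way, at 82.0, 80.8 and 86.25 CPM with mebendazole, against 149.9, 140.5 and 139.6 CPM with DMSO (log2 fold change -0.79, SE 0.05). The ratio of SLC16A1 to SLC16A3 reads, which does not depend on library scaling, was 0.173, 0.182 and 0.187 with mebendazole, against 1.01, 0.991 and 0.962 with DMSO. SLC2A6, a lysosomal glucose transporter of myeloid cells, was called higher at a log2 fold change of 0.23, but lay at -0.01 (adjusted p = 0.79, edgeR) when scaled by library totals.

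In the first steps of glycolysis the isozymes of hexokinase, which traps glucose as glucose phosphate, went in opposite directions. HK3, an isozyme expressed mainly in myeloid cells, had 141, 158 and 148 CPM with mebendazole, against 56.0, 53.8 and 56.1 CPM with DMSO, and rose by a log2 fold change of 1.43 (SE 0.07, adjusted p = 7.8e-39, edgeR). HK1, the housekeeping isozyme bound to mitochondria, was higher by 0.58 (SE 0.03). HK2, the isozyme commonly raised in proliferating and tumour cells, had 14.2, 15.96 and 15.8 CPM with mebendazole, against 43.1, 42.3 and 42.1 CPM with DMSO. It was the largest fall of all 46 genes, at a log2 fold change of -1.47 (SE 0.06, adjusted p = 4.4e-29, edgeR). Per kilobase of merged exon, HK3 made up 68.1 ± 1.36% of summed hexokinase RNA with mebendazole and 46.6 ± 0.812% with DMSO (SD, n = 3 each). HK2 made up 3.61 ± 0.121% with mebendazole and 18.5 ± 0.192% with DMSO. The summed hexokinase level was 71.3 ± 2.85 CPM per kb with mebendazole and 38.7 ± 0.759 CPM per kb with DMSO, so that the fall of HK2 did not lower the sum. With the median length of coding transcripts in place of merged exons the order was the same, HK3 at 64.1% and HK2 at 3.65% with mebendazole, against 42.8% and 18.3% with DMSO.

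GPI, which converts glucose phosphate to fructose phosphate, fell to 121.6 ± 3.22 CPM with mebendazole, against 204 ± 8.64 CPM with DMSO. Phosphofructokinase, the committing enzyme, again differed by isozyme. PFKP, the platelet-type isozyme, had 80.4, 88.6 and 89.4 CPM with mebendazole, against 59.1, 56.3 and 54.8 CPM with DMSO (log2 fold change 0.60, SE 0.08). PFKL, the liver-type isozyme, had 161, 174.1 and 159.8 CPM with mebendazole, against 182.5, 174.7 and 176 CPM with DMSO. The groups barely separated. The call of PFKL at -0.11 (adjusted p = 0.00716, edgeR) was lost without pair 1 (adjusted p = 0.0949), without pair 3 (adjusted p = 0.109) and with DESeq2 (adjusted p = 0.144). PFKM, the muscle-type isozyme, rested on 24, 36 and 27 reads with mebendazole, against 58, 72 and 75 reads with DMSO, and fell by 0.99 on the log2 scale.

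PFKFB3 and PFKFB4, bifunctional enzymes that make and break down the small-molecule activator of phosphofructokinase, both rose. PFKFB2, a gene of the same family, is not among the 46 and was picked out after its values were seen. Its level fell to 5.26 CPM with mebendazole, against 11.2 CPM with DMSO (means, log2 fold change -1.09). With DMSO it thus lay above PFKFB4, and with mebendazole below it. PFKFB4 had 36.0, 37.0 and 40.8 CPM with mebendazole, against 7.23, 5.08 and 6.58 CPM with DMSO (log2 fold change 2.59, SE 0.16, adjusted p = 5.2e-37, edgeR). PFKFB3, the isozyme whose kinase activity far outweighs its phosphatase activity, had 79.2, 68.8 and 73.3 CPM with mebendazole, against 34.8, 33.9 and 33.3 CPM with DMSO (log2 fold change 1.12, SE 0.05). The summed level of PFKFB3 and PFKFB4 per kilobase was 24.1 ± 1.03 with mebendazole and 8.01 ± 0.387 with DMSO (CPM per kb, SD, n = 3 each), and the ratio of PFKFB4 to PFKFB3 reads was 0.454, 0.537 and 0.558 with mebendazole, against 0.208, 0.15 and 0.198 with DMSO.

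**Figure D3:**
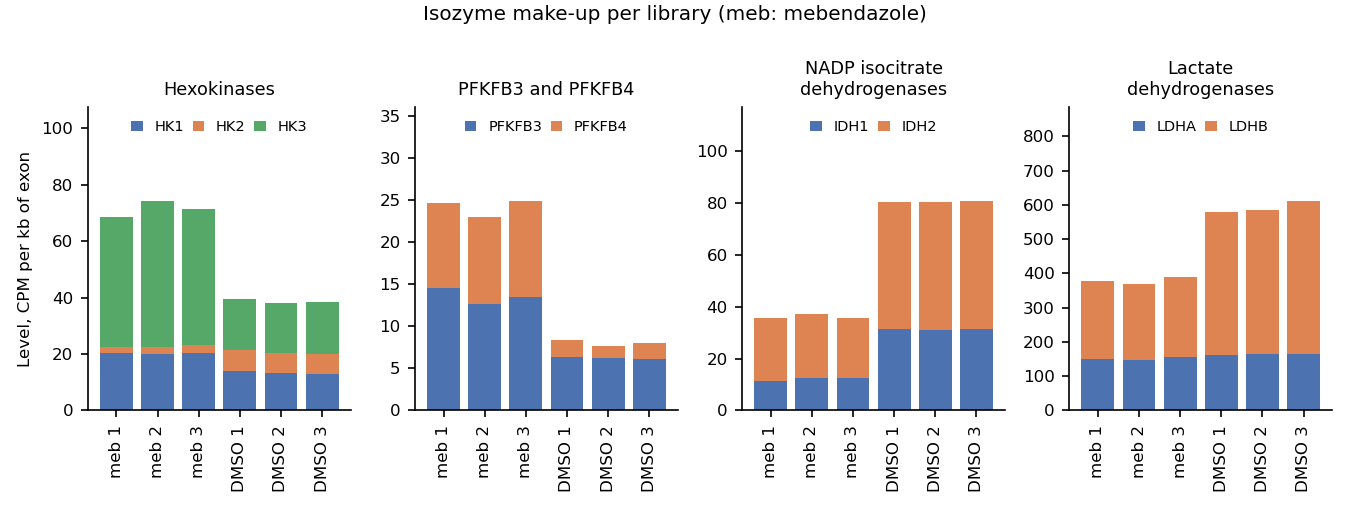
Level of isozymes per kilobase of merged exon (CPM per kb, stacked bars from zero) in each mebendazole and DMSO library, for HK1 to HK3, PFKFB3 and PFKFB4, the NADP-dependent isocitrate dehydrogenases and lactate dehydrogenases. The hexokinase sum is 71.3 with mebendazole and 38.7 with DMSO and HK2 shrinks within it, while the isocitrate dehydrogenase sum is 36.0 with mebendazole and 80.3 with DMSO.

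Of the abundant enzymes further down glycolysis, ALDOA, ENO1 and LDHA had log2 fold changes within 0.2 of zero with TMM scaling, while GAPDH and PKM rose and LDHB fell. ALDOA, the main aldolase, had 1071, 1043 and 1063 CPM with mebendazole, against 1089, 989 and 1066 CPM with DMSO, and was not called (log2 fold change 0.02, adjusted p = 0.62, edgeR). Scaled by library totals it lay at -0.23 (adjusted p = 5.2e-10, edgeR), close to the shift of the median gene. ENO1, the main enolase, and LDHA, the lactate dehydrogenase subunit that favours pyruvate reduction, were lower by small log2 changes of -0.13 each. TPI1, the triose phosphate isomerase, fell by 0.28 and PGK1, the first ATP-yielding enzyme, by 0.41. PGAM1, which moves the phosphate of phosphoglycerate, was called lower at -0.17 (adjusted p = 0.0159, edgeR), with groups that overlapped. That call was lost without pair 3 (adjusted p = 0.189) and with DESeq2 (adjusted p = 0.236). GAPDH, the NADH-yielding dehydrogenase often used as an expression reference, had 1738, 1737 and 1799 CPM with mebendazole, against 1114, 1043 and 1115 CPM with DMSO, a 1.61-fold rise (SE 0.03 on the log2 scale, adjusted p = 4.7e-32, edgeR). Scaled by library totals, GAPDH was still higher, by 0.44 on the log2 scale. GENCODE names 61 processed pseudogenes of GAPDH and 13 of PGAM1, and reads shared with such copies may have been dropped or split, which makes the absolute levels of both uncertain. The same limit holds for the others of the 18 members with such a copy. Among these are LDHA (6 copies), TPI1 (4), ENO1 (4) and LDHB (3).

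LDHB, the lactate dehydrogenase subunit that favours lactate oxidation, had 362, 351 and 373 CPM with mebendazole, against 659, 668 and 706 CPM with DMSO. It fell by 0.90 on the log2 scale (SE 0.02, adjusted p = 1.7e-36, edgeR). The ratio of LDHB to LDHA reads was thus 0.815, 0.811 and 0.809 with mebendazole, against 1.36, 1.38 and 1.44 with DMSO. Per kilobase of merged exon, LDHB stayed the larger part of the summed RNA of both genes, at 60.3% with mebendazole and 72.2% with DMSO. With the median length of coding transcripts these shares were 51.1% and 64.1%. The low-abundance brain-type isozymes went opposite ways. ENO2, the neuronal enolase, had 133, 165 and 144 reads with mebendazole, against 43, 39 and 30 reads with DMSO, a log2 fold change of 2.21 (SE 0.27, adjusted p = 1.8e-21, edgeR). ENO2 stayed under 1% of the summed ENO1 and ENO2 RNA per kilobase, at 0.586 ± 0.0961% with mebendazole and 0.117 ± 0.0288% with DMSO. ALDOC, the brain-type aldolase, fell by 0.88 on the log2 scale, at 6.82 ± 0.746 CPM with mebendazole and 12.6 ± 0.696 CPM with DMSO. Of the 19 glycolysis genes in all, 7 were called higher, 11 lower and 1 was not called, with a median log2 fold change of -0.13.

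At the entry of pyruvate into mitochondrial oxidation, PDK1 rose among the inhibitory kinases of the pyruvate dehydrogenase complex. PDK3 fell, as did PDK2 and PDK4, which are not among the 46. Both subunits of the complex's first enzyme fell. Of the other components, picked out after their values were seen, DLAT, the acetyltransferase, fell by 0.49 on the log2 scale, and PDHX, which binds the last enzyme, and DLD, that last enzyme, were not called (0.01, adjusted p = 0.909, and -0.03, adjusted p = 0.576, edgeR). PDHA1, which encodes the catalytic alpha subunit, had 46.7, 49.9 and 48.9 CPM with mebendazole, against 77.6, 78.3 and 76.4 CPM with DMSO (log2 fold change -0.68, SE 0.03). PDHB, the beta subunit, had 32.6, 31.1 and 31.1 CPM with mebendazole, against 53.4, 58.0 and 56.55 CPM with DMSO (log2 fold change -0.82, SE 0.06). PDK1, a kinase that inactivates the complex by phosphorylating the alpha subunit, had 37.1, 39.4 and 41.9 CPM with mebendazole, against 16.1, 15.5 and 17.5 CPM with DMSO. It rose 2.41-fold (SE 0.04 on the log2 scale, adjusted p = 4.1e-26, edgeR). PDK3, another kinase of the same family, fell to 21.4 ± 1.17 CPM with mebendazole, against 29.7 ± 2.18 CPM with DMSO, and the ratio of PDK3 to PDK1 reads was 0.605, 0.549 and 0.481 with mebendazole, against 1.72, 2.07 and 1.68 with DMSO.

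In the pentose phosphate pathway, 1 of 6 genes was called higher and 4 lower, while of 8 further genes tested from the list of this pathway 4 were called higher and 2 lower, with a median log2 fold change of 0.14. PGD, the second NADPH-yielding dehydrogenase of the oxidative branch, had 326, 321 and 338 CPM with mebendazole, against 240.0, 234 and 254 CPM with DMSO (log2 fold change 0.44, SE 0.01, adjusted p = 6.9e-19, edgeR). PGLS, the lactonase just before it, fell by 0.58 (SE 0.03). The interconversion enzymes of ribulose phosphate fell most. RPIA, the isomerase that makes ribose phosphate, had 23.5, 21.3 and 21.8 CPM with mebendazole, against 60.2, 56.0 and 52.1 CPM with DMSO (log2 fold change -1.34, SE 0.04, adjusted p = 6.9e-30, edgeR). RPE, the epimerase, fell by 1.01 (SE 0.03), and GENCODE names 6 processed pseudogenes of it. The more abundant enzymes that return pentoses to glycolysis moved least. TKT, transketolase, was called lower at -0.12, and TALDO1, transaldolase, had 274, 269 and 281 CPM with mebendazole, against 259.6, 257 and 274 CPM with DMSO, and was not called (0.06, adjusted p = 0.0963, edgeR). Scaled by library totals, TALDO1 lay at -0.18 (adjusted p = 1.9e-06, edgeR).

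Most of the listed TCA cycle genes were lower, with OGDH an exception among the 46. Of 13 further genes tested, 10 were lower, DLST and SDHA were higher and IDH3B was not called (-0.08, adjusted p = 0.222, edgeR). Of the 12 genes of the cycle and the malic enzymes among the 46, 10 were called lower and 2 higher under every scaling, filter and left-out pair tried, and with DESeq2. Of all genes tested, 41.7% were called lower with TMM factors and 53.9% with library totals. Against a 1.5-fold change, 6 of the 10 falls passed, where 21.2% of all genes tested were lower. OGDH, the dehydrogenase subunit of the oxoglutarate dehydrogenase complex, had 203, 203 and 205 CPM with mebendazole, against 85.6, 81.2 and 80.4 CPM with DMSO, a 2.47-fold rise (SE 0.03 on the log2 scale, adjusted p = 1.0e-39, edgeR). CS, citrate synthase at the entry of the cycle, IDH3A, a subunit of the NAD-dependent isocitrate dehydrogenase, and SUCLG1 and SUCLA2, subunits of succinyl-CoA ligase, fell modestly, with log2 fold changes of -0.24, -0.29, -0.30 and -0.28. FH, fumarase, had 68.9, 67.3 and 67.8 CPM with mebendazole, against 118, 122 and 126 CPM with DMSO (-0.85, SE 0.03). MDH2, the mitochondrial malate dehydrogenase, fell by 0.76 (SE 0.02) and MDH1, its cytosolic partner in the malate-aspartate shuttle, by 1.03 (SE 0.02). MDH1 had 133, 137 and 130.2 CPM with mebendazole, against 272, 273 and 270.1 CPM with DMSO.

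The malic enzymes and the NADP-dependent isocitrate dehydrogenases, which stand beside the cycle, moved in different directions. ME1, the cytosolic malic enzyme that makes NADPH from malate, had 221.5, 212 and 209 CPM with mebendazole, against 50.2, 47.5 and 51.7 CPM with DMSO. It rose 4.30-fold (SE 0.04 on the log2 scale, adjusted p = 8.5e-50, edgeR). ME2, the mitochondrial malic enzyme, fell, at 65.6, 63.1 and 68.8 CPM with mebendazole, against 119.7, 112 and 114 CPM with DMSO. The ratio of ME2 to ME1 reads was 0.296, 0.298 and 0.328 with mebendazole, against 2.38, 2.37 and 2.19 with DMSO. IDH1, the cytosolic NADP-dependent isocitrate dehydrogenase, had 32.1, 35.1 and 34.7 CPM with mebendazole, against 87.1, 86.7 and 87.4 CPM with DMSO (-1.36, SE 0.04, adjusted p = 6.0e-34, edgeR). IDH2, its mitochondrial counterpart, had 67.45, 69.0 and 65.1 CPM with mebendazole, against 138, 138 and 139 CPM with DMSO (-1.04, SE 0.03). Their summed level per kilobase was 36.0 ± 0.912 with mebendazole and 80.3 ± 0.282 with DMSO (CPM per kb, SD, n = 3 each).

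Ratios within a library remove the choice of scaling, and 15 pairs of isozymes or subunits were compared. Read ratios are not corrected for gene length, so they do not say which gene of a pair has more RNA. In 14 of the 15 the mebendazole and DMSO libraries did not overlap, each with an exact permutation p of 0.1 (two-sided, adjusted p = 0.107 over the 15), the smallest that 3 against 3 allows. The permutation took no account of the pairs, unlike the SE given with each difference. Taken singly, 82.4% of all genes tested did not overlap, and no such share was computed for ratios of other gene pairs. The lack of overlap therefore does not set these pairs apart. The exception was SUCLA2 to SUCLG1, whose log2 ratio differed by 0.02 (SE over pairs 0.04, exact permutation p = 0.6). The largest differences were ME2 to ME1 (log2 difference -2.91, SE 0.09), SLC16A1 to SLC16A3 (-2.45, SE 0.05), ENO2 to ENO1 (2.34, SE 0.28) and HK2 to HK1 (-2.05, SE 0.05). PDK3 to PDK1 differed by -1.74 (SE 0.12), PFKFB4 to PFKFB3 by 1.48 (SE 0.20), SLC2A3 to SLC2A1 by 1.00 (SE 0.08) and LDHB to LDHA by -0.78 (SE 0.03). The smallest of the 14 were MDH2 to MDH1 (0.27, SE 0.03) and IDH2 to IDH1 (0.32, SE 0.05), compartment pairs in which both genes fell.

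**Figure D4:**
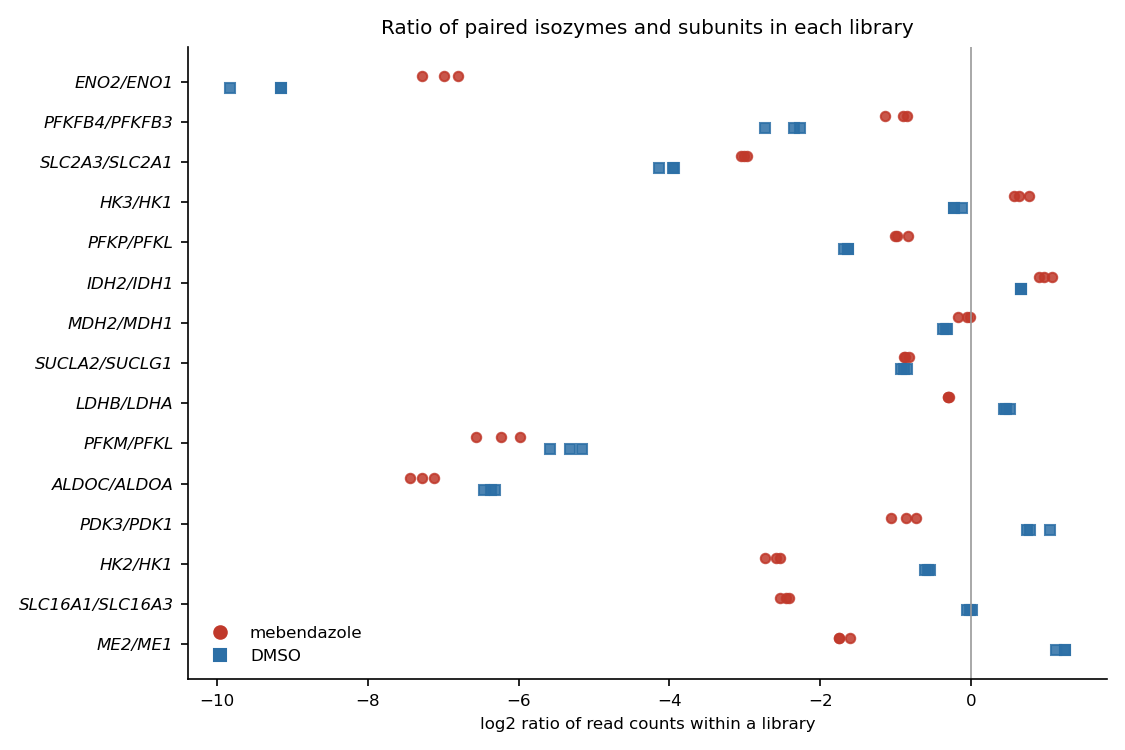
Log2 ratio of read counts of 15 pairs of isozymes or subunits within each library, circles for mebendazole and squares for DMSO, ordered by the difference between groups. SUCLA2/SUCLG1 is the pair whose libraries overlap, and ME2/ME1 is the widest gap (-2.91).

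Other genes of the same pathways, taken from a list of 72, were read beside the 46. Of these, 71 were in the table and 56 were tested, of which 15 were called higher, 30 lower and 11 neither, with a median log2 fold change of -0.24. Among all genes tested, 40.6% were called higher and 41.7% lower. The pyruvate kinase gene PKM, whose enzyme ends glycolysis, had 2574, 2489 and 2557 CPM with mebendazole, against 944, 881 and 925 CPM with DMSO (log2 fold change 1.47, SE 0.02, adjusted p = 4.6e-51, edgeR). ENO3, the muscle-type enolase, and PGAM2, the muscle-type mutase, also rose, by 1.65 and 1.29 on the log2 scale. Among genes with a mean of 10 CPM or more, the falls were led by G6PC3, a glucose phosphatase of the endoplasmic reticulum, at -1.92, and by PGM1 and PGM2, phosphoglucomutase family enzymes, at -1.41 and -0.68. Of 10 further transport genes tested, 1 was called higher and 5 lower, among them the less abundant SLC2A8 (-0.70), SLC2A10 (-0.78) and SLC2A11 (-0.96). BSG, the chaperone of MCT1 and MCT4, was called higher at 0.29, little above the size of that scaling shift, and SLC2A9, a urate transporter, and SLC2A5, the fructose transporter, fell with log2 fold changes of -1.76 and -0.99.

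In the pentose phosphate list, TKTL1, a transketolase-like gene, rose by 0.99, and PRPS1 and PRPS2, which activate ribose phosphate for nucleotide synthesis, fell with log2 fold changes of -0.62 and -0.42. At the pyruvate step, MPC2, a subunit of the mitochondrial pyruvate carrier, rose by 1.08 and MPC1, its partner, fell by 0.57. The dehydrogenase phosphatase PDP1 rose by 0.63, its regulator PDPR was called higher at 0.16 with overlapping groups, and the kinases PDK2 and PDK4 fell with log2 fold changes of -1.24 and -0.59. In the cycle, DLST, the succinyltransferase of the OGDH complex, rose by 0.43 and SDHA, the flavoprotein of succinate dehydrogenase, by 0.35. SUCLG2, the GTP-linked subunit of succinyl-CoA ligase, ACO1, cytosolic aconitase, and ACLY, the citrate-splitting enzyme of lipid synthesis, fell with log2 fold changes of -1.59, -0.98 and -0.62.

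Of 25 genes that regulate glucose metabolism, 22 were tested, 13 were called higher and 7 lower, where 82.3% of all genes tested were called. EPAS1 and HIF1A, which encode the oxygen-regulated alpha subunits of hypoxia-inducible factors, had mean levels of 305 ± 10.6 and 338 ± 12.5 CPM with mebendazole, against 29.2 ± 2.55 and 53.7 ± 1.75 CPM with DMSO (SD, n = 3 each). Their log2 fold changes were 3.39 (SE 0.05) and 2.65 (SE below 0.01). NFE2L2, which encodes the oxidative stress factor NRF2, rose to 448 ± 20.4 CPM with mebendazole, against 136 ± 5.69 CPM with DMSO. TXNIP and ARRDC4, arrestin-family genes induced by glucose whose products restrain glucose uptake, fell by 1.20 and 1.35 on the log2 scale. PPARGC1B, a coactivator of mitochondrial gene expression, fell by 1.66. Whether these regulators had a part in the changes of the 46 genes was not tested.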

How the data were processed

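RNA-seq libraries (TruSeq RNA v2, per the labels' protocols) were made from 3 mebendazole and 3 DMSO samples. The deposited table holds unnormalized counts for each gene symbol and library. STAR, bedtools, HTSeq, DESeq2 and hg19 are named without roles, per the submitters' processing notes; for annotation, strand setting and filters the sources used here give nothing. Counts were fitted in R 4.3.3 with edgeR 4.0.16 (filterByExpr, TMM, glmQLFit and glmQLFTest, two-sided, pair as a term, because the labels state pairs) over 13591 genes holding 99.92% of reads, with Benjamini-Hochberg adjustment over all of them. A gene's 2 residual degrees of freedom stood beside a prior of 61, so small p-values rest mostly on the pooled spread. Levels are CPM with TMM factors. The SE of a log2 fold change is the SD of the 3 within-pair log2 differences over the square root of 3. Levels between genes are per kilobase of merged exon (GENCODE 29 basic, matched by symbol). Isozyme ratios of single libraries are of plain counts. Their log2 differences between groups, the SE of these and the exact permutation test over libraries used counts plus 0.5. Alternatives were library totals, DESeq2 1.42.0, no filter, a mean CPM of 10 or more, no pair term, each pair left out, a test against a 1.5-fold change, and an offset of 1. The code was tested on simulated data. No replicate libraries agreed within sampling noise. The members and lists were chosen with earlier results of these data known. Every member is named or counted, and of the other lists the 3 largest called rises and falls with a mean CPM of 10 or more. Results for 2 genes outside the 46 that this rule or the marker list would name are not reported here.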

Additional observations from a re-analysis of the deposited data

How the results depend on the processing

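Of the 46 genes, 41 held their direction and call wherever they were tested, apart from the test against a 1.5-fold change. With library totals the log2 fold changes of SLC2A6, ALDOA and TALDO1 reversed, to -0.013, -0.228 and -0.185. ALDOA, which was not called, also lay at -0.00038 with no filter and at -0.018 when the filter was a mean of 10 CPM, which left out PFKM, ENO2 and ALDOC. PFKL and PGAM1 lost their calls with DESeq2 and without pair 3, and PFKL also without pair 1; the cause was not tested. Against a 1.5-fold change, which asks for a larger change, 16 of the 46 were lower and 11 higher, the lower ones with 5 in glycolysis, 2 in the pentose phosphate pathway (0 higher) and 6 in the TCA cycle, and 5774 genes of all tested were called, 21.3% higher and 21.2% lower. Without 1 pair, 27 to 29 of the 46 were lower and 15 higher, and 10572 to 10885 genes of all tested were called. With no replicate block, 29 were lower, 15 higher and 11118 genes of all tested called, and no call among the 46 changed. Deviations of same-numbered libraries from their group means had correlations of -0.001, 0.061 and 0.016; 2 of the 3 mebendazole libraries correlated best with their own number. The log2 ratio of SUCLA2 to SUCLG1 ranged from -0.0208 to 0.0536 without 1 pair; the other 14 ratios kept their sign. Ratios of PFKM, ENO2 and ALDOC rest on few reads, and the exact test of 3 against 3 cannot go below 0.1.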
